A study of Mus musculus with 10 samples.

Results

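The transcriptional response to interleukin-4 (IL-4) was described in peritoneal macrophages of glutaminase knockout mice, by setting 3 libraries from knockout mice given IL-4 against 2 libraries from knockout mice given saline. The knockout (KO) mice were LysM-Cre x Gls1 fl/fl, in which Cre recombinase is driven by the lysozyme 2 locus of the myeloid lineage and removes the floxed part of the gene. The controls, called wild type (WT) in the labels, carried the same floxed alleles without Cre, so the genotype cannot be told apart from the presence of Cre and its insertion at the lysozyme locus. Mice on a C57BL/6 background were injected intraperitoneally with saline, giving the basal libraries, or with IL-4 held in a complex with an anti-IL-4 antibody. After 36 h the peritoneal cells were washed out with 5 ml of PBS and sorted by staining for CD64, ICAM-2 and CD115, and polyadenylated RNA was sequenced. The series held 10 libraries, namely 2 knockout basal, 3 knockout IL-4, 2 wild-type basal and 3 wild-type IL-4. Nothing in the labels ties a replicate to its own mouse, so the p-values measure the spread between these samples, which may be technical. Of 22165 gene identifiers, 11614 passed the expression filter and were tested, and these are the genes described.

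IL-4 binds a receptor that activates the transcription factor STAT6, and in macrophages this turns on a set of genes known as alternative activation, among them Arg1, Retnla and Chil3. In body cavities IL-4 is also known to make resident macrophages divide in place. Glutaminase converts glutamine to glutamate, which feeds the tricarboxylic acid (TCA) cycle, transaminases and glutathione synthesis.

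Promoters of genes that rose, chosen because they hold a motif described here, are shown as the 250 bases before the transcription start, from RefSeq on GRCm38.p6, 5′ to 3′ on the strand of the gene. Capitals in the first mark TTCNNNNGAA, the palindromic sequence of STAT-type sites with a spacer of 4 bases. The promoter table held 12 of the 15 alternative activation genes that rose, and Retnla was the only one of the 12 with a match, which is a share of 8.33% beside 5.85% of all 32851 promoters. Of the 39 promoters of all tested members of that list 5 (12.8%) held it, so the share was not higher among those that rose. Retnla encodes a secreted resistin-like protein and lies at chr16:48842359-48842608 (+ strand) for this stretch.
Retnla: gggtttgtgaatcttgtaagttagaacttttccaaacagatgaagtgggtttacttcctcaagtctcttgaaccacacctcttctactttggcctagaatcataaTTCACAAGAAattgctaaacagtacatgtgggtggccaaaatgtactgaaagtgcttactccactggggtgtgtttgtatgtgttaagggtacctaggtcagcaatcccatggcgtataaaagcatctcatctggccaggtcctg
The promoters of 3 mitotic genes follow, with capitals on TTTGAA or its reverse complement TTCAAA, the core of the cell cycle homology region element of G2 and mitosis genes. This motif was chosen after the values were seen, and the genes are the G2 and mitosis members that rose with the smallest p among those with a match. Ube2c, a ubiquitin-conjugating enzyme of the anaphase-promoting complex, Kif15, a spindle kinesin, and Ccnb2, cyclin B2, are given at chr2:164769679-164769928 (+ strand), chr9:122950831-122951080 (+ strand) and chr9:70421555-70421804 (- strand). The bases that follow the Ccnb2 stretch were not found in a GENCODE M21 transcript of that gene, unlike those of the other promoters shown. Its start is uncertain to that extent.
Ube2c: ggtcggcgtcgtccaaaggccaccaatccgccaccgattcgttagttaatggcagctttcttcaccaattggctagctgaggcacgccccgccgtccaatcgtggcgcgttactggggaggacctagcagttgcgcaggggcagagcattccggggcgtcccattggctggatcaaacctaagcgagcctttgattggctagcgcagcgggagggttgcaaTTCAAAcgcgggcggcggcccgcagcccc
Kif15: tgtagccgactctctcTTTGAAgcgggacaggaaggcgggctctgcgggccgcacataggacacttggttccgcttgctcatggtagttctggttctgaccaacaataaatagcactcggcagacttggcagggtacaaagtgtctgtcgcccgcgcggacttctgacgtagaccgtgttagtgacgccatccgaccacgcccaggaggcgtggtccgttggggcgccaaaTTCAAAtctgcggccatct
Ccnb2: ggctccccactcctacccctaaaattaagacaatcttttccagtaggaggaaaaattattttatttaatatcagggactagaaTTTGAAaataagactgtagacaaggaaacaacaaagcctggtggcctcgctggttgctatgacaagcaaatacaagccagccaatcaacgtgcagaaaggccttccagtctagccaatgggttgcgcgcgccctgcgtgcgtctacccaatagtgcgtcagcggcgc
Of 43 promoters of G2 and mitosis genes that rose, 18 (41.9%) held the letters, beside 16.0% of all promoters and 38.6% of the promoters of all tested members of that list. A match is a description of the letters only.

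Library totals ran from 8762403 to 15024073 counts. Lyz2, the locus that drives Cre, stood at 2663 and 9671 CPM (counts scaled to library size) in the knockout basal and 4094, 3503 and 2844 in the knockout IL-4 libraries (adjusted p = 0.2). Among the genes of the sort, Csf1r (CD115) stood at 319 and 266 CPM in the knockout basal and 276, 367 and 290.5 in the knockout IL-4 libraries, Icam2 at 524 and 713 and 487, 275 and 398, and Fcgr1 (CD64) at 27.7 and 21.7 and 13.6, 7.98 and 8.81. Of these Fcgr1 fell (adjusted p = 0.013, or 0.13 without basal replicate 1). The macrophage genes Adgre1 (F4/80), Itgam and Gata6 each stood at 539.1 CPM or more in all 5 knockout libraries. The 2 knockout basal libraries stood apart in markers of other cells. The 28 B cell markers summed to 3024 and 3422 CPM there, against 1367, 1293 and 1309 after IL-4 in knockout, 802 and 991 in wild-type basal and 1224, 1320 and 1189 in wild-type IL-4 libraries, as the plot of summed marker levels shows.

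**Figure D1:**
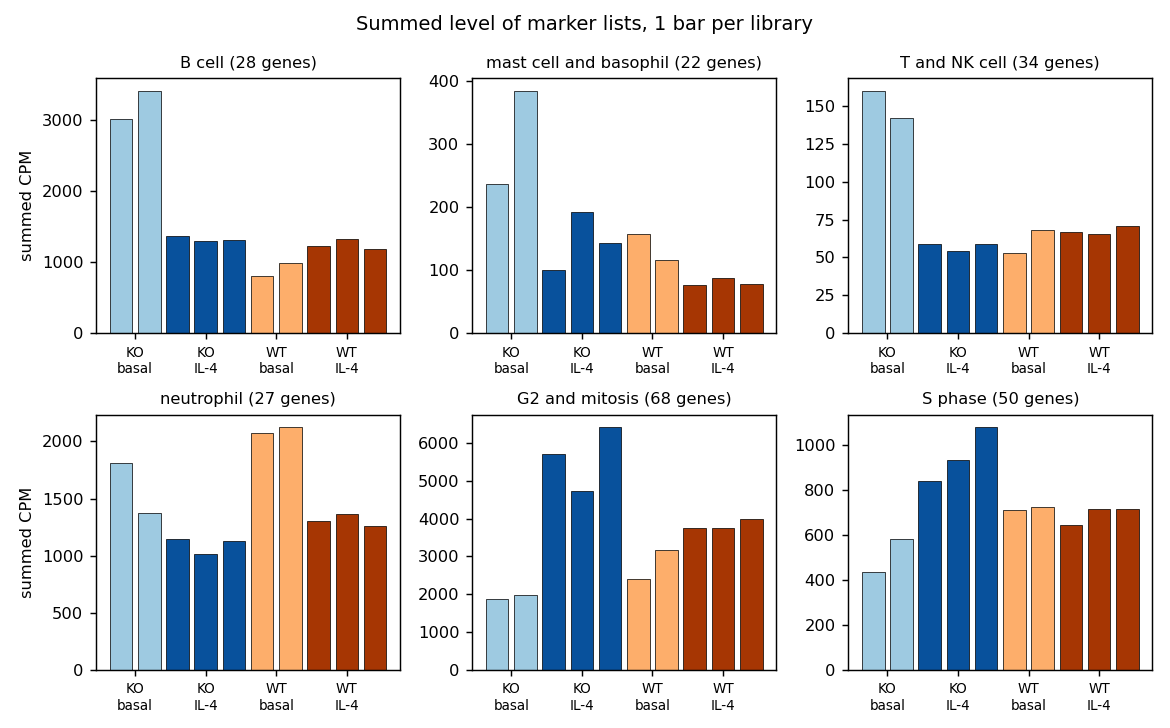
Summed CPM of 6 gene lists, with 1 bar for each of the 10 libraries, coloured by group. Markers of B cells, mast cells and T and NK cells are highest in the 2 knockout basal libraries, and the G2 and mitosis sum is highest in the 3 knockout IL-4 libraries. Most of the T and NK cell sum in the knockout basal libraries comes from 1 gene, Cd2.

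IL-4 raised 475 genes and lowered 408 in knockout macrophages at an adjusted p under 0.05 in edgeR's quasi-likelihood test with Benjamini-Hochberg adjustment. These were 4.09% and 3.51% of the genes tested, and 7.6% in either direction, and 2639 genes had an unadjusted p under 0.05. At least a 2-fold change was seen in 387 of the rises and 336 of the falls, and at least a 4-fold change in 170 and 118. All 3 IL-4 libraries lay above both basal libraries for each of the 475 rises, and below both for 404 of the 408 falls, while over all genes tested 18.4% lay wholly above and 21.2% wholly below. The median log2 fold change of all genes was 0.00. When counts were scaled by library totals in place of trimmed-mean factors, that median shifted to -0.10 and the calls became 386 higher and 532 lower, so the split between rises and falls depends on the scaling. Without basal replicate 1 there were 164 higher and 193 lower calls, and without basal replicate 2 there were 164 and 163. Of the 883 calls 187 held in every fit that left out 1 of the 10 libraries, namely 94 rises and 93 falls. List members given by symbol without values were named after the values were seen. Of 125 called genes named in the text 60 held in every such fit, and 65, among them most of those given by symbol alone, lost the call in at least 1.

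**Figure D2:**
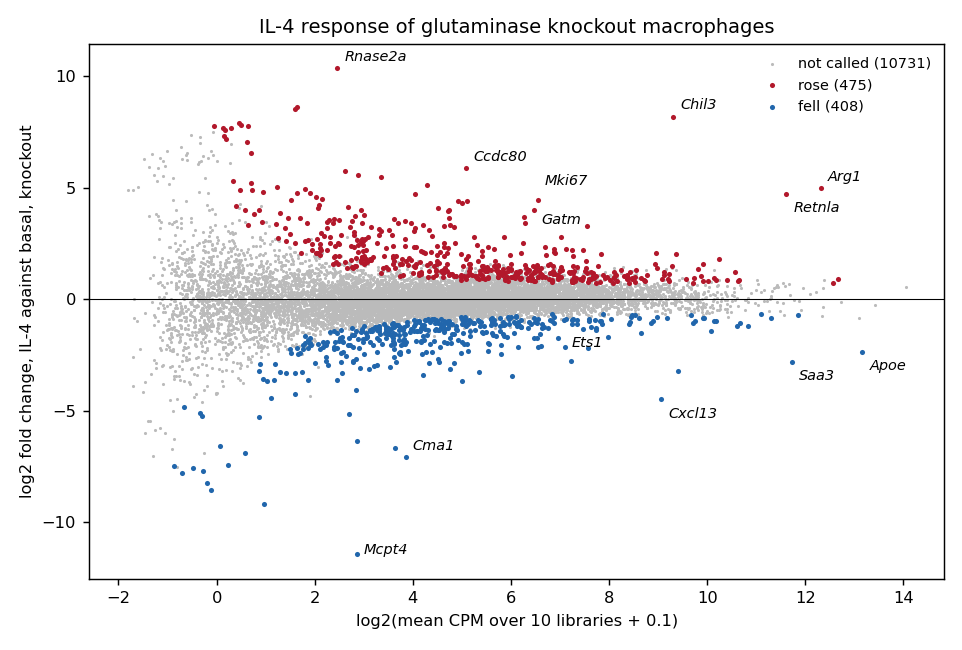
Each point is 1 of 11614 genes, with its mean level over the 10 libraries on the x axis and its fitted log2 fold change in knockout macrophages on the y axis. The 475 genes that rose are red and the 408 that fell are blue. Genes beyond about 7 on the y axis are mostly at 0 counts in 1 group, where the fitted value is no measure of size.

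Knockout macrophages raised Retnla, Arg1 and Chil3, the best known alternative activation genes, by 26.0-fold or more. Of 41 tested members of this list 15 rose and 4 fell, with a median log2 fold change of 0.85, beside the 4.09% and 3.51% called over all genes. Retnla went from 233 and 273 CPM in the basal libraries to 6680.1, 7818 and 5275 after IL-4, a log2 fold change of 4.70 ± 0.27 (SE, 3 against 2 libraries; adjusted p = 6.9e-08). Arg1, which splits arginine into ornithine and urea, went from 171 and 208 to 6325, 5884 and 5711 CPM (31.5-fold, adjusted p = 1.6e-06). In both genes the lowest IL-4 library was many times above the highest basal library. Chil3, which encodes the chitinase-like protein Ym1, was close to silent at 1.41 and 1.34 CPM and reached 501, 396 and 308 CPM, a log2 fold change of 8.18 ± 0.35 (adjusted p = 1.7e-09). Rnase2a, a secreted ribonuclease of the eosinophil-associated family, had 0 counts in both basal libraries and 17.9, 13.7 and 11.2 CPM after IL-4, which is at least 95.4-fold higher when the basal group is set at 3 counts. Ear2, of the same family, rose from 7.67 and 8.14 to 51.7, 55.3 and 58.8 CPM. Chil3, Rnase2a and Ear2 belong to multigene families whose near-identical copies can share reads, so their levels are uncertain to that extent.

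Among lectin receptors of alternatively activated macrophages Mgl2 and Mrc1 rose, and Cd209b fell with a call that 1 basal library carried. Mgl2 (CD301b) went from 18.2 and 39.6 to 279.6, 307 and 251 CPM (3.27 ± 0.37, adjusted p = 9.6e-05), the strongest rise among them. Mrc1, the mannose receptor, went from 36.5 and 58.4 to 312, 158 and 211 CPM with an adjusted p of 0.0046, or 0.078 without basal replicate 1. Its group means differ 4.77-fold, and the 3 IL-4 libraries are spread more widely than those of Mgl2. Other members, given here after their values were seen, were Klf4, a transcription factor that acts with STAT6 (241 and 279 to 1371, 858 and 945 CPM, log2 2.02 ± 0.24, adjusted p = 9.6e-05), and the growth factor gene Igf1 (309 and 182 to 645, 627 and 577 CPM, log2 1.33 ± 0.23, adjusted p = 0.0026, or 0.063 without basal replicate 2). Falling in the same list were Pdcd1lg2, the checkpoint ligand PD-L2 (16 and 15.3 to 5.28, 2.92 and 3.04 CPM, adjusted p = 0.0037), Trem2 (adjusted p = 0.011, or 0.23 without basal replicate 1), the lectin Cd209b (adjusted p = 0.0023, or 0.051 without basal replicate 1) and the signalling inhibitor Cish. Cish went from 7.46 and 11 to 2.34, 2.15 and 2.32 CPM (adjusted p = 0.015, or 0.19 without basal replicate 2). The part of B cell RNA, whose marker sum was highest in the knockout basal libraries, in the fall of Pdcd1lg2 was not tested. The 15 rises became 10 without either basal library in turn. Of the 24 tested genes of the IL-4 receptor and STAT6 pathway 1 rose (Stat6, adjusted p = 0.042, or 0.30 without basal replicate 2) and 1 fell (Cish). Each is 4.17%, close to the 4.09% and 3.51% of all genes. The receptor chain Il4ra stood at 38.2 and 44.9 CPM before and 29.5, 44.2 and 41.6 after IL-4.

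**Figure D3:**
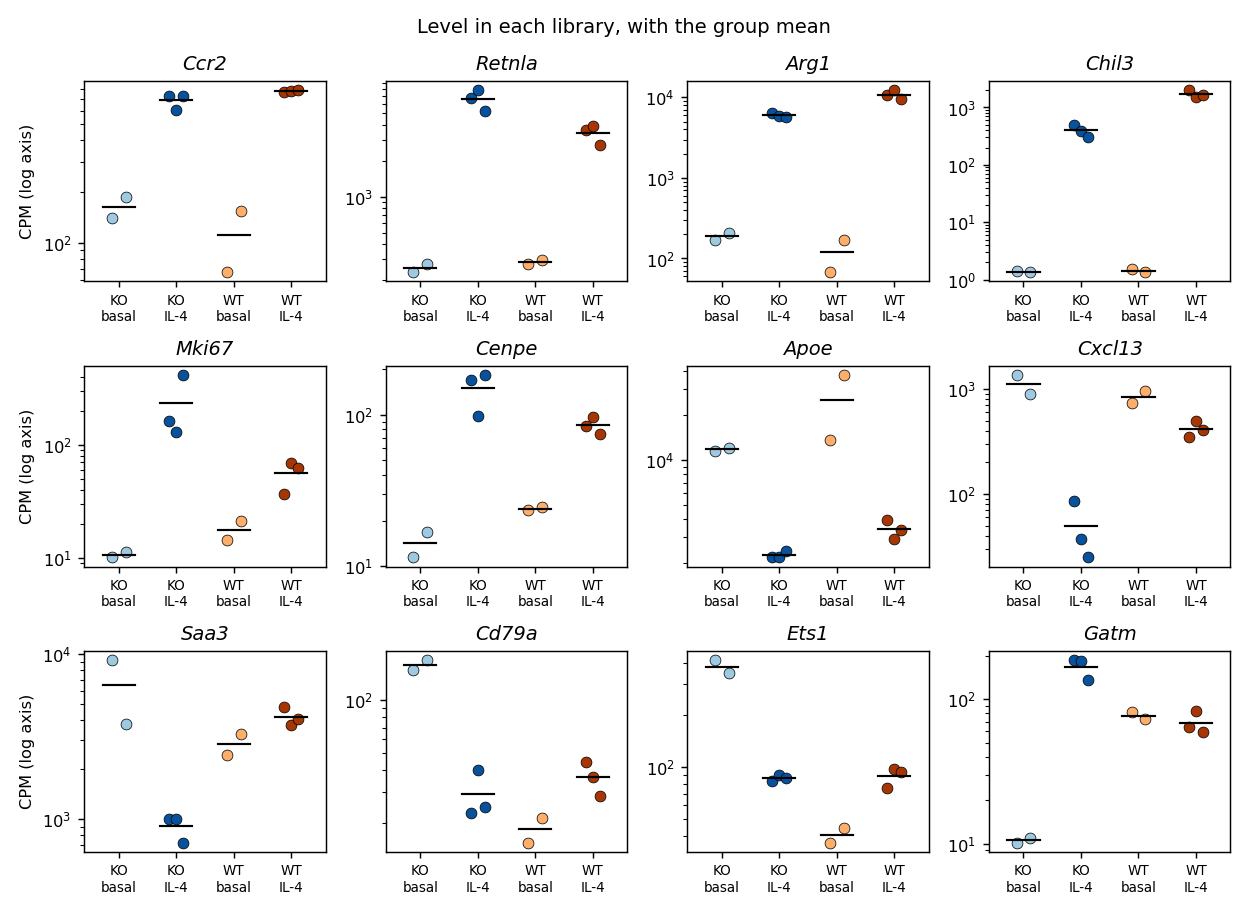
CPM on a log axis for 12 genes in each of the 10 libraries, grouped by genotype (KO, WT) and treatment, with a line at each group mean. Ccr2, Retnla, Arg1, Chil3, Mki67 and Cenpe are higher in all IL-4 than in all basal libraries of both genotypes, while Saa3, Cd79a and Ets1 are lower after IL-4 in the knockout libraries and not in the wild-type libraries.

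Genes of cell division rose together, and among the 41 gene lists that of G2 and mitosis had the most rises. Among 68 tested G2 and mitosis genes 50 rose and 0 fell (73.5% against 4.09% of all genes), with a median log2 fold change of 2.70. Mki67, the proliferation marker Ki-67, went from 10.2 and 11.3 to 164, 129 and 411 CPM (21.9-fold, adjusted p = 0.00023), with IL-4 replicate 3 the highest library. Cenpe, a kinesin that carries chromosomes to the spindle equator, went from 11.5 and 17 to 170.1, 98.1 and 182 CPM (3.39 ± 0.33, adjusted p = 2.3e-05). The spindle factor Tpx2 stood at 1.41 and 4.83 CPM in the basal libraries and 37.4, 59.3 and 53.8 after IL-4 (adjusted p = 9.1e-05). The groups do not overlap for any of the 3 genes, as for each of the 475 rises over all genes. Also among the largest rises by fold were Kif14 and Prc1 of the midbody, the abscission factor Cep55, and the kinetochore scaffold Knl1, which went from 0.324 and 2.32 to 56, 31.4 and 23.6 CPM. Cdca2 and the kinetochore subunit Spc25 rose more evenly, Spc25 from 8 and 7.42 to 42.1, 48.7 and 42.8 CPM (adjusted p = 5.3e-05). Hmmr, a spindle-associated hyaluronan receptor, had 0.108 and 1.88 CPM before and 38.5, 35.2 and 37 CPM after IL-4.

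DNA replication genes rose less and in smaller number. Of 50 tested S phase genes 12 rose (24% against 4.09% of all genes) and 0 fell, with a median log2 fold change of 0.98. Clspn, which encodes the replication checkpoint adaptor claspin, went from 2.92 and 6.62 to 44.1, 48.6 and 47.2 CPM (3.27 ± 0.38, adjusted p = 9.3e-05). Ccne2, cyclin E2, went from 4.11 and 3.49 to 15.7, 20 and 24.1 CPM, and the thymidylate synthase gene Tyms from 4.97 and 5.9 to 19, 22.3 and 20.7 CPM. Both passed the test, at adjusted p = 0.001 and 0.0012, with the IL-4 libraries close together. The 12 rises became 4 without basal replicate 1 and 7 without IL-4 replicate 3, and the 50 mitotic rises became 34 without basal replicate 1. Of 24 tested G1 cyclin, CDK inhibitor and MYC genes 2 rose (Cdkn2c and Cdk6) and 1 fell (8.33% and 4.17%, beside 4.09% and 3.51% of all genes). The 2 rises became 0 without either basal library. The gene that fell was Ccnd2, cyclin D2, at 254 and 857 CPM in the basal libraries and 143, 116 and 106 after IL-4 (adjusted p = 0.0025, or 0.062 without basal replicate 2). Its basal libraries differ more than 3-fold from each other (254 and 857 CPM). Myc stood at 44.7 and 50.4 CPM before and 24, 45.7 and 35.7 after IL-4 (adjusted p = 0.43).

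Genes typical of monocytes, dendritic cells and the small peritoneal macrophage moved as well. Of 32 tested, 10 rose and 5 fell (Ccr7, Napsa, Plac8, Kit and Irf8), 31.25% and 15.6% beside 4.09% and 3.51% of all genes. Of the 10 rises 6 are also in the alternative activation list. Among the falls Kit is also in the mast cell and basophil list, and Ccr7 is given again with the B cell genes. Ccr2, the receptor that draws monocytes from blood, went from 139 and 187 to 730.2, 607 and 733 CPM (2.08 ± 0.30, adjusted p = 0.00054). Fcrls, an Fc receptor-like scavenger, went from 17.1 and 16.3 to 75.1, 69.2 and 76.5 CPM (adjusted p = 0.00027). In both genes all IL-4 libraries were more than 3-fold above the basal ones. Among 40 tested genes typical of the large, resident peritoneal macrophages 3 rose (Gbp2b, Cd5l and Car6) and 3 fell (Cxcl13, Saa3 and Klf2), 7.5% each way against 4.09% and 3.51% of all genes. Those 3 rises became 0 without either basal library in turn. Gata6, the transcription factor that defines them, stood at 565 and 539 CPM before and 736, 650.3 and 644 after IL-4 (adjusted p = 0.42), and Timd4 at 307 and 250.2 and 298, 220.4 and 241 (adjusted p = 0.75). In sorted bulk RNA a change in the share of a cell type and a change in RNA per cell cannot be told apart. Without basal replicates 1 and 2 in turn the 10 rises of the first list became 5 and 6.

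Some immediate early and inflammatory genes rose, and most members of these lists did not pass. Among 27 immediate early and handling stress genes 5 rose (Fos, Egr1, Jun, Fosb and Junb) and 0 fell (18.5% higher against 4.09% of all genes), led by the transcription factor gene Fos at 57.5 and 31.6 CPM before and 271, 191 and 160.4 after IL-4 (2.22 ± 0.30, adjusted p = 0.00032) and Egr1 at 8.86 and 18.7 and 60, 71.9 and 78.1 (adjusted p = 0.0012). These genes also respond to cell isolation, and the part of handling in their rise was not tested. Of 38 NF-kB target and cytokine genes 7 rose (18.4%) and 1, Traf1, fell. Il6, which encodes interleukin-6, went from 3.46 and 2.41 to 16.1, 40.6 and 38.4 CPM (10.8-fold, adjusted p = 0.00019), and Nfkbiz, an atypical inhibitor of NF-kB, from 52.1 and 55.9 to 171, 174 and 141 CPM (adjusted p = 0.00083). The neutrophil attractant Cxcl1 went from 8.43 and 5.19 to 14, 42.1 and 28.3 CPM (adjusted p = 0.0057, or 0.099 without basal replicate 2). The complement component C3 rose from 105 and 72 to 500.2, 236 and 353 CPM (adjusted p = 0.0006), while C1qa, of the first complement component, fell from 1872 and 1475 to 783, 1068 and 665 CPM (adjusted p = 0.012, or 0.15 without basal replicate 1). Among 43 interferon-stimulated genes 2 rose (Cxcl10 and Rsad2) and 2 fell (Ly6e and Bst2), each 4.65% and close to the shares of 4.09% and 3.51% over all genes. Those 2 rises became 0 without IL-4 replicate 3 or without any 1 of the 3 wild-type IL-4 libraries. Without either basal library in turn the 7 NF-kB rises became 4 and 2, and the 5 immediate early rises became 3 and 3.

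The chemokine gene Cxcl13 and the acute-phase gene Saa3 fell. Cxcl13, which attracts B cells, went from 1348 and 888 CPM to 86.8, 37.2 and 25 CPM (22.6-fold lower, adjusted p = 5.3e-05). Saa3, serum amyloid A3, went from 9162 and 3762 to 998, 999 and 719 CPM (7.14-fold lower, adjusted p = 9.1e-05), with basal replicate 1 far above basal replicate 2. Both genes are markers of large peritoneal macrophages, and their groups do not overlap, as for 404 of the 408 falls over all genes. The tetraspanin gene Cd63 went from 147 and 119.7 to 11.7, 14.7 and 10.5 CPM (adjusted p = 6.1e-06), and Klf2, a transcription factor that restrains inflammatory genes, from 1233 and 1249 to 592, 714 and 592 CPM. The Klf2 call (adjusted p = 0.008) was lost without basal replicate 1 or 2, at 0.060 and 0.065.

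Several genes of lipid transport fell. Of 19 targets of the liver X receptors (LXR), which sense cholesterol, 5 fell (Scd1, Apoc1, Apoe, Pltp and Apoc2) and 2 rose (Arl4c and Smpdl3a). These are 26.3% and 10.5%, beside 3.51% and 4.09% of all genes. The 2 rises became 0 without either basal library or IL-4 replicate 1. Apoe, the apolipoprotein of cholesterol efflux, went from 11514 and 12127 to 2213, 2193 and 2441 CPM (5.18-fold lower, adjusted p = 0.0003). Its neighbour Apoc1 went from 494 and 213 to 53.2, 45.6 and 55.3 CPM (adjusted p = 0.00013), and the phospholipid transfer protein gene Pltp from 905 and 670 to 281, 289.6 and 256 CPM (adjusted p = 0.00054). Scd1, which desaturates fatty acids, went from 62.1 and 80.4 to 12.9, 11.1 and 8.89 CPM (adjusted p = 9.6e-05). The knockout groups do not overlap for any of these 4 genes, as for 404 of the 408 falls over all genes. The list's median log2 fold change was -0.11, and Abca1 stood at 202 and 147 CPM before and 246, 174 and 144 after IL-4 (adjusted p = 0.87).

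Uptake of dying cells, called efferocytosis, is named in the title of the study. Of 41 tested genes of an efferocytosis list 4 rose (C3, Mrc1, Axl and Dock1) and 4 fell (Stab1, Slc2a1, C1qa and Fpr2). Each count is 9.76%, beside 4.09% and 3.51% of all genes, and the median log2 fold change was -0.09. The list holds receptors and bridging molecules, and also other genes, such as the carrier gene Slc2a1 and the signalling gene Dock1. Fpr2 is counted among the neutrophil markers too. Axl, a receptor kinase for apoptotic cells singled out after its values were seen, went from 6.81 and 8.85 to 25.1, 25.7 and 23.9 CPM (adjusted p = 0.005, or 0.079 without basal replicate 1). Stab1, the phosphatidylserine receptor stabilin-1, fell from 41.9 and 39.9 to 14, 17.4 and 17.4 CPM (-1.33 ± 0.25, adjusted p = 0.0039), as did Slc2a1, the glucose carrier GLUT1, from 20.6 and 29.5 to 4.87, 8.9 and 4.4 CPM (adjusted p = 0.004, or 0.058 without basal replicate 2). Mertk, a related kinase, stood at 356 and 451 CPM before and 433, 419 and 520.1 after IL-4 (adjusted p = 0.64). The count of rises became 1 without basal replicate 1, and that of falls 2 without basal replicate 2.

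Of 37 tested genes of glutamine use and transamination 3 rose (8.11% against 4.09% of all genes) and 2 fell (5.41% against 3.51%), with a median log2 fold change of -0.14. Among the falls was Slc1a5, the glutamine carrier ASCT2, from 23.9 and 35 to 12.6, 11.1 and 9.53 CPM (adjusted p = 0.005, or 0.11 without basal replicate 2). The rises were Slc7a11, Psat1 and Bcat2, and their number became 0 without either basal library in turn. Slc7a11, the cystine-glutamate exchanger, had 1 count over both basal libraries and 77 over the IL-4 libraries (adjusted p = 0.024), a call lost without basal replicate 1 or 2, at 0.15 and 0.093. Glul, Got1, Got2 and Glud1, central enzymes of glutamine and glutamate exchange that were added after the values were seen, did not pass. Glul stood at 904 and 1045 CPM before and 781, 934 and 577 after IL-4 (adjusted p = 0.45), Got1 at 4.97 and 6.53 and 6.8, 9.06 and 8.49 (adjusted p = 0.43). Got2 stood at 29.5 and 31.7 and 31.3, 35.8 and 22 CPM (adjusted p = 0.96), and Glud1 at 129.6 and 169 and 296, 154 and 168 (adjusted p = 0.37).

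Of 23 tested arginine and creatine genes 3 rose and 1 fell, with a median log2 fold change of -0.12. The shares were 13.04% and 4.35%, beside 4.09% and 3.51% of all genes. Beside Arg1 the rises were Gatm and the arginine carrier gene Slc7a2. Gatm, which makes the creatine precursor guanidinoacetate, stood at 10.2 and 10.9 CPM before and 186, 184 and 137 after IL-4 (16-fold, adjusted p = 9.3e-07). Slc7a2 stood at 60.1 and 51.9 CPM before and 249, 202 and 194 after IL-4. The Slc7a2 call (adjusted p = 0.015) was lost without basal replicate 1 or 2, at 0.11 and 0.16. Odc1, which makes putrescine from ornithine, was the member that fell, from 21.3 and 27.8 to 12.7, 11.3 and 9.21 CPM (adjusted p = 0.015, or 0.18 without basal replicate 2 and 0.051 without IL-4 replicate 3).

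Calls in the energy-metabolism lists are given beside the 4.09% of all genes that rose and the 3.51% that fell. Among 61 nuclear-encoded subunits of respiratory complexes I to IV 0 rose and 1, Ndufb9, fell (1.64%), with a median log2 fold change of -0.14. The 17 ATP synthase genes and the 30 TCA cycle and pyruvate genes had 0 calls in edgeR, with medians of -0.03 and 0.10. At an unadjusted p under 0.05 there were 1 and 5, and DESeq2 called 1 higher in each. Lists without calls are not shown to be unaltered at this number of libraries. Atp5a1, the gene of the ATP synthase alpha subunit, stood at 226 and 243 CPM before and 546, 313 and 423 after IL-4 (adjusted p = 0.078), and Pdk1, an inhibitor of pyruvate entry, at 34.8 and 25.1 and 48.9, 46.8 and 51.2 (adjusted p = 0.087). Of 31 glycolysis and HIF1 target genes 0 rose and 1, Slc2a1, fell (3.23%). Of 42 fatty acid oxidation and peroxisome genes 3 rose (Abcd2, Eci2 and Lipa, 7.14%) and 0 fell. The number of rises in the latter list became 1 and 0 without basal replicates 1 and 2. Among 46 glutathione, thioredoxin and NRF2 genes 3 rose (Gpx7, Gsto1 and Slc7a11, 6.52%) and 0 fell, with Gpx7 at 1.95 and 3.84 and 10.8, 11.8 and 10.5 CPM (adjusted p = 0.0097, or 0.13 without basal replicate 1). Those 3 rises became 0 and 1 without basal replicates 1 and 2. The 76 cytosolic ribosomal protein genes leaned lower, with 0 rises, 7 falls (9.21%) and a median log2 fold change of -0.41. The number of falls became 0 without basal replicate 1 and 1 without basal replicate 2. Rps14, the first of them by p, went from 2077 and 1576 to 912, 912 and 782 CPM (adjusted p = 0.012, or 0.15 without basal replicate 1).

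**Figure D4:**
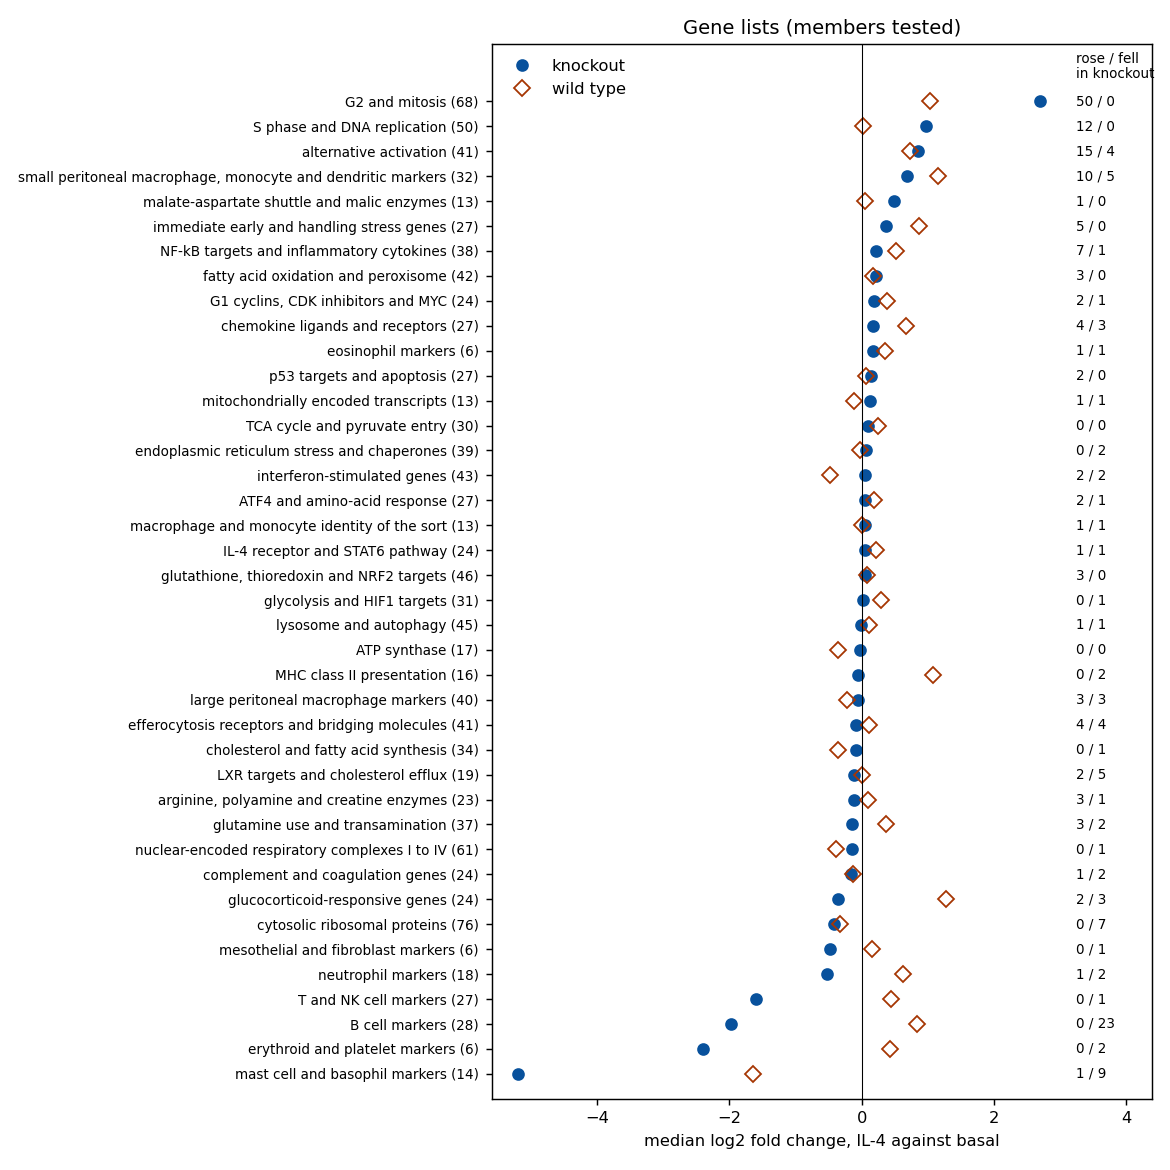
Median log2 fold change of each gene list, IL-4 against basal, in knockout (filled circles) and wild-type libraries (open diamonds), with the number of members tested in brackets and the numbers that rose and fell in knockout at the right. In knockout, genes at 0 counts in 1 group are set at the bound that 3 counts give. G2 and mitosis genes are the highest in knockout. Mast cell and basophil markers, some of which passed the expression filter only through groups where they are high, are the lowest. B cell markers lie at opposite sides of 0 in the 2 genotypes. So do other lists, among them T and NK cell, neutrophil, erythroid and platelet, glucocorticoid-responsive and MHC class II genes.

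B cell genes fell. Of 28 tested B cell markers 23 fell and 0 rose (82.1% against 3.51% of all genes), with a median log2 fold change of -1.98. Cd79a, a signalling chain of the B cell receptor, went from 149.7 and 169 to 22.9, 39.9 and 24.7 CPM (-2.45 ± 0.29, adjusted p = 9.6e-05). Siglecg, an inhibitory lectin of B cells, went from 123 and 143 to 19.8, 30.4 and 28.7 CPM, and Ly6d from 137 and 133 to 13.8, 18 and 10.8 CPM. Ets1 and Ebf1, transcription factors of lymphocytes and of B cells, went from 413 and 348 to 82.9, 90.3 and 86.1 CPM and from 192 and 242 to 67.4, 75.4 and 50.6 CPM (adjusted p = 3.4e-05 and 0.00037). The chemokine receptors Cxcr5 and Ccr7 went from 48.5 and 40.6 to 7.31, 9.44 and 9.93 and from 26.4 and 28.8 to 4.37, 2.76 and 3.6 CPM. For each of these 7 genes both basal libraries lay more than 2-fold above every IL-4 library. As the summed marker levels above show, the IL-4 libraries of knockout mice were near those of wild-type mice, and the basal knockout libraries were the ones that stood apart. The part of B cell RNA in each of these falls, and in those of Pdcd1lg2, Ccnd2, Napsa and Plac8 given with other lists, was not tested. The 23 falls became 14 without basal replicate 2 and 17 without basal replicate 1. Among 27 T and NK cell markers 1 fell (3.70%, close to the 3.51% of all genes). This was Cd2, from 84.4 and 82.3 to 17.8, 20.8 and 24 CPM (adjusted p = 0.00037). The sum of the T and NK cell markers went from 160.3 and 142 to 58.6, 54 and 58.5 CPM. Cd2 alone, at 84.4 and 82.3 CPM, made up most of that sum in the basal libraries. The part of B cell RNA in the fall of Cd2 was not tested.

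Several mast cell markers fell to near 0. Of 22 mast cell and basophil markers with a row of counts, 8 did not pass the expression filter, and of the 14 tested 9 fell and 1 rose, beside 3.51% and 4.09% of all genes. That count is a description only, since a marker with almost no counts after IL-4 could pass the filter only through groups where it is higher. With a filter of at least 1 CPM on average 8 were tested and 5 fell. Mcpt4, a chymase of connective tissue mast cells, had 21.5 and 39.3 CPM in the basal libraries and 0 counts in all 3 IL-4 libraries, at least 369-fold lower when that group is set at 3 counts. Mrgprb1, Fcer1a and Ms4a2 were also at 0 counts there. Cma1, another chymase, went from 51.3 and 72.2 to 0.203, 0.768 and 0.32 CPM (135-fold lower, adjusted p = 1.6e-06), Cpa3, carboxypeptidase A3, from 46.8 and 61.3 to 0.812, 0.768 and 0 CPM, and the tryptase gene Tpsb2 from 24.8 and 32.9 to 0.305, 0.384 and 0.32 CPM. Kit, the stem cell factor receptor, went from 9.19 and 47.4 to 0.406, 0.998 and 0.881 CPM (adjusted p = 0.00059, or 0.052 without basal replicate 2). Hdc stood at 29.2 and 54.3 CPM before and 34, 40.4 and 42.6 after IL-4, and the receptor gene Il1rl1 was the member that rose, from 33 and 47 to 57.1, 144 and 94.6 CPM (adjusted p = 0.032, or 0.25 without basal replicate 1). Wild-type basal libraries held 7.93 and 9.42 CPM of Cma1 and 5.85 and 5.74 of Cpa3, below the knockout basal libraries. The 9 falls became 4 without basal replicate 2. Haemoglobin Hba-a1 went from 7.46 and 5.36 CPM to 0 counts in all IL-4 libraries. Calls among the other cell types checked stand beside 4.09% of all genes rising and 3.51% falling. Of 18 neutrophil markers 1 rose (Chil1, 5.56%) and 2 fell (Fpr1 and Fpr2, 11.1%). Of 6 eosinophil markers 1 rose (Ear2) and 1 fell (Il5ra), 16.7% each. In the mesothelial and fibroblast list 1 of 6 fell (16.7%), namely Pecam1, which is also a gene of endothelial cells and leukocytes. With 6 members 1 call is already 16.7%. Chil1 lost its call without either basal library in turn (adjusted p = 0.070 and 0.11), and Fpr2, Il5ra and Pecam1 lost theirs without basal replicate 2. The part of these other cell types in other changes was not tested.

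The same contrast in wild-type libraries, which shares no library with the knockout one, called 379 genes higher and 325 lower (3.26% and 2.8%, or 6.06% in either direction). Of the rises 113 were shared, which is 23.8% of the knockout rises and 29.8% of the wild-type rises. Of the falls 63 were shared, 15.4% and 19.4% of each. In opposite directions were 8 genes that rose in knockout and fell in wild type and 27 that fell in knockout and rose in wild type. Apoe fell in both, at 13662 and 37393 CPM in wild-type basal and 3909, 2921 and 3373 in wild-type IL-4 libraries, and Arg1, Retnla, Mgl2, Ear2, Ccr2, Fos and Il6 rose in both. The difference between the 2 IL-4 effects was tested directly as an interaction, which called 119 genes with a higher effect in knockout and 207 with a lower one (1.02% and 1.78%, or 2.81% in either direction). Of the 475 knockout rises 73 had a higher effect and 2 a lower one, and of the 408 falls 142 had a lower effect and 0 a higher one. The interaction includes the knockout contrast by which these genes were picked, so a lean in these directions is partly built in. Scaled by library totals the split of the interaction became 92 higher and 275 lower, and that of the wild-type calls 481 and 256. Without wild-type basal replicates 1 and 2 in turn the wild-type calls numbered 413 and 302, and with the wild-type IL-4 replicates 1, 2 and 3 omitted in turn they numbered 399, 340 and 378. For the interaction, leaving out replicate 1 of the knockout basal group gave 182 calls and leaving out replicate 1 of the wild-type IL-4 group gave 212.

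Chil3 rose less in knockout than in wild type, where it went from 1.51 and 1.37 to 2002, 1498 and 1628 CPM (interaction -2.02 ± 0.43, adjusted p = 0.017). Among cell division genes 11 of 68 G2 and mitosis genes and 4 of 50 S phase genes had a higher effect in knockout, beside 1.02% of all genes. None of them had a lower one. In wild type 13 of the 68 rose, beside 3.26% of all genes, with a median of 1.03. Mki67 stood at 14.4 and 21.2 CPM in wild-type basal and 36.6, 69.9 and 62.9 in wild-type IL-4 libraries, and both wild-type groups lie between the knockout basal and the knockout IL-4 libraries (interaction 2.79 ± 0.63, adjusted p = 0.03). Gatm stood at 81.2 and 72.7 and 64.5, 82.9 and 59.9 CPM in wild type, and its interaction was 4.15 ± 0.35 (adjusted p = 4.4e-05). Ccdc80, a secreted matrix protein gene, went from 2.05 and 0.626 to 57.9, 72.2 and 101 CPM in knockout and from 10.1 and 6.94 to 26.9, 27 and 32.4 in wild type (interaction 4.12 ± 0.55, adjusted p = 0.00094). Id2, an inhibitor of helix-loop-helix factors, went from 529 and 692 to 1412, 1099 and 1044 CPM in knockout and from 2003 and 1771 to 990.1, 880 and 904 in wild type (adjusted p of the interaction = 0.0016). Its knockout rise alone (adjusted p = 0.011) was lost without basal replicate 1, at 0.16. Cd200r3 stood at 5.51 and 6.88 and 32.6, 32.9 and 28.7 CPM in knockout and 13.4 and 10.6 and 10.7, 8.31 and 11.7 in wild type. Eif3j2, which has a near-identical copy that can share its reads, stood at 2.38 and 2.15 and 6.09, 4.84 and 9.53 CPM in knockout and 43.2 and 36 and 4.82, 5.58 and 5.04 in wild type, and Dnajb12 at 8 and 10.6 and 17, 11 and 12.8 and 76.7 and 63.9 and 17.6, 11.2 and 13.2. Both had a higher effect in knockout, with the wild-type basal libraries the highest of all groups.

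**Figure D5:**
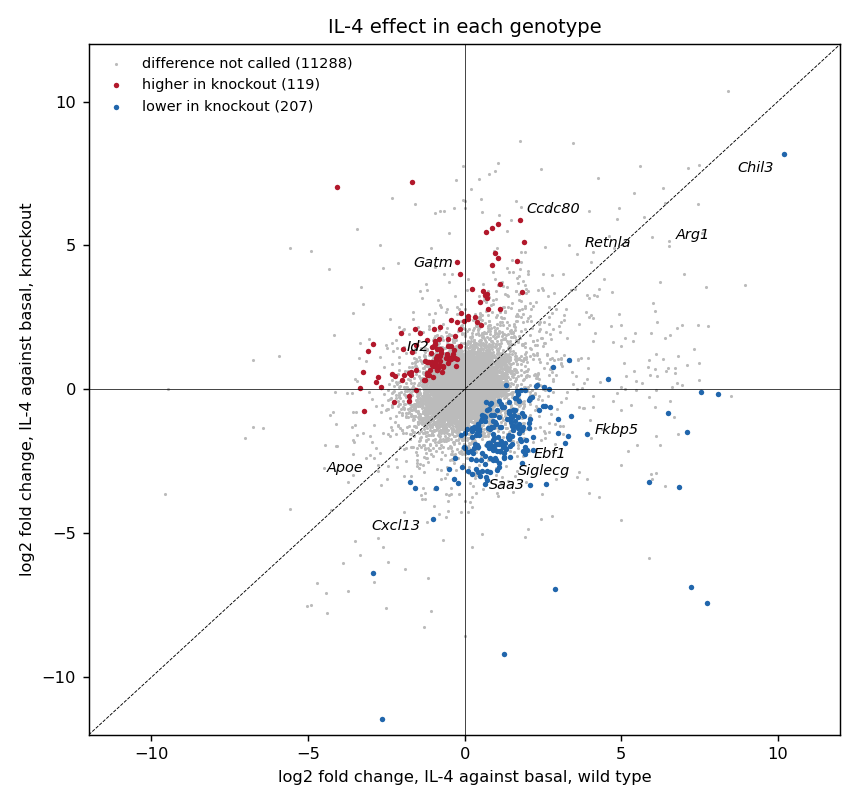
Fitted log2 fold change of each tested gene, IL-4 against basal, in wild type (x axis) and knockout (y axis), with the dashed line at equal effects. The 119 genes with a higher effect in knockout are red and the 207 with a lower effect are blue. Values beyond about 7 mostly come from groups at 0 counts.

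The lower effects in knockout held 20 of 28 B cell markers and 9 of 24 glucocorticoid-responsive genes, beside 1.78% of all genes. Siglecg, Ets1 and Ebf1 rose in wild type and fell in knockout, Ebf1 from 16.9 and 21.1 to 74.8, 85.3 and 63.7 CPM in wild type (interaction -3.73 ± 0.36, adjusted p = 7.2e-05). Saa3 stood at 2435 and 3288 CPM in wild-type basal and 4773, 3707 and 4028 in wild-type IL-4 libraries (interaction -3.38 ± 0.44, adjusted p = 0.0011), and Cxcl13 at 728 and 948 and 352, 493 and 408 (-3.49 ± 0.58, adjusted p = 0.0056). Of 24 tested glucocorticoid-responsive genes 2 rose (Cd163 and Per1) and 3 fell (Zbtb16, Fpr1 and Fkbp5) in knockout. These are 8.33% and 12.5%, beside 4.09% and 3.51% of all genes. In wild type 13 rose and 0 fell, beside 3.26% and 2.8% of all genes. The 2 knockout rises became 0 without knockout basal replicate 1. Fkbp5, a chaperone that glucocorticoids induce, went from 1.6 and 6.08 to 61.4, 57 and 56.8 CPM in wild type and from 19.5 and 41.9 to 12.2, 9.37 and 10.1 in knockout (interaction -5.46 ± 0.62, adjusted p = 0.00059). Its knockout fall (adjusted p = 0.03) was lost without basal replicate 2, IL-4 replicate 2 or IL-4 replicate 3, at 0.37, 0.068 and 0.076. Crispld2 stood at 3.89 and 4.83 and 3.05, 2.3 and 1.68 CPM in knockout and 2.08 and 4.37 and 39.2, 32.8 and 31.6 in wild type (adjusted p of the interaction = 0.00059). Zbtb16, a zinc-finger gene that glucocorticoids induce, went from 331 and 328 to 118, 144 and 131 CPM in knockout (adjusted p = 0.00065). Tpm3-rs7, a tropomyosin 3 related sequence that can share reads with its parent gene, also had a lower effect in knockout (adjusted p = 0.0003). Of 16 antigen-presentation genes of MHC class II 0 rose and 2 (H2-Ob and H2-DMb2) fell in knockout, 12.5% beside 3.51% of all genes. In wild type 6 rose (beside 3.26% of all genes) and 0 fell, and 7 had a lower effect in knockout (beside 1.78%). H2-Ob, a class II subunit of B cells, went from 37.8 and 46.9 to 10.9, 10.7 and 12.8 CPM in knockout and stood at 7.55 and 4.02 and 14.1, 8.11 and 12.5 in wild type. In Siglecg, Ets1, Ebf1, Fkbp5, Zbtb16, Tpm3-rs7, H2-Ob and Saa3 both knockout basal libraries lay above both wild-type basal libraries.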

How the data were processed

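Polyadenylated RNA of sorted peritoneal macrophages was sequenced in 10 libraries. Values are whole-number counts of reads per gene, deposited by the authors as 1 table. STAR, HTSeq and the mm10 build appear in the submitters' processing notes, without versions, and the strand setting of the counting is not given in the sources used here, so overlapping genes may share reads. Symbols came from GENCODE M21 identifiers, and 420 of 22165 identifiers had none.

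Genes were filtered with filterByExpr (minimum count 10, total count 15), scaled by trimmed-mean (TMM) factors and fitted in edgeR 4.0.16 (R 4.3.3) by quasi-likelihood, with 1 mean for each of the 4 groups, 6 residual degrees of freedom and Benjamini-Hochberg adjustment over 11614 genes. The biological coefficient of variation was 28.4%. Levels are CPM, counts scaled to the TMM-adjusted library total. They are not divided by gene length, so levels of different genes are not compared. The SE of a log2 fold change is its size divided by the square root of its F statistic. The interaction subtracts the wild-type log2 fold change from that of knockout. The procedure was tested on simulated data. Replicates of each group differed beyond sampling noise (chi-square of 28.1 to 80.6 per gene), so none was taken as a repeat deposit of 1 library. This does not show that they came from separate mice. A group at 0 counts was set at 3 counts for a fold, over the group. SEs include the spread between libraries, and such bounds cover counting error only.

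The members and the 41 gene lists were chosen with earlier results of these data known. Genes were named as the 12 largest rises and falls whose libraries did not overlap and whose higher group averaged 10 CPM or more, up to 4 called members of each list by p, up to 6 genes in each direction of the interaction by p, and Lyz2. Other genes are marked in the text, and some genes that this rule picks are not reported here. Alternatives were other scalings and filters, DESeq2 1.42.0, a replicate block, a fit of the 5 knockout libraries and leaving out each library. Promoter stretches are from RefSeq (GRCm38.p6).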

Additional observations from a re-analysis of the deposited data

Results flagged for a closer look

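The IL-4 effect differed between knockout and wild-type macrophages for 326 genes by the interaction term of edgeR's quasi-likelihood test at an adjusted p under 0.05. Values below are the knockout log2 fold change minus that of wild type, for each gene named in the text that passed. Higher effects in knockout among cell division genes were seen for Cep55 (4.71), Kif14 (4.69), Knl1 (3.77), Hmmr (3.22), Mki67 (2.79), Clspn (2.63), Kif15 (2.61), Ccne2 (2.42), Spc25 (2.20) and Cenpe (1.57). Other genes with a higher effect in knockout were Eif3j2 (4.53), Gatm (4.15), Ccdc80 (4.12), Dnajb12 (2.87), Cd200r3 (2.57), Gbp2b (2.53), Pmaip1 (2.31) and Id2 (1.98). Among B and T cell genes the effect was lower in knockout for Siglecg (-3.80), Ebf1 (-3.73), Cd79a (-3.43), Ets1 (-3.27), Ly6d (-3.05), Cxcr5 (-2.99), Ccr7 (-3.20) and Cd2 (-1.99). Among MHC class II genes it was lower for H2-Ob (-2.88) and H2-DMb2 (-2.48). Markers of mast cells, eosinophils and red cells with a lower effect were Mcpt4 (-8.81), Tpsb2 (-3.44), Il5ra (-2.48) and Hba-a1 (-10.47). Among glucocorticoid-responsive and formyl peptide receptor genes the effect was lower for Fkbp5 (-5.46), Crispld2 (-4.32), Zbtb16 (-1.68), Fpr1 (-2.63) and Fpr2 (-2.48). For lipid genes it was lower for Scd1 (-3.80), Apoc1 (-2.27), Apoc2 (-1.61) and Pltp (-1.53). The others with a lower effect in knockout were Tpm3-rs7 (-4.92), Saa3 (-3.38), Napsa (-2.99), Stab1 (-2.08), Cxcl13 (-3.49), Pdcd1lg2 (-2.98), Plac8 (-2.33), Ccnd2 (-2.75), Pecam1 (-2.05), Chil3 (-2.02), Slc1a5 (-1.83), Cd63 (-1.86), Syvn1 (-1.42) and Traf1 (-2.13). Hba-a1 and Mcpt4 had no counts in the knockout IL-4 libraries, so their fitted values are no measure of size. The gap of a single library to the rest of its group was not tested, since groups held 2 or 3 libraries.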

How the results depend on the processing

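The 883 genes called in knockout became 1423 with no filter on low counts and 1371 with DESeq2, and ranged from 327 to 931 when 1 library was left out, lowest without basal replicate 2 (327) and basal replicate 1 (357). The wild-type count of 704 became 1209 with no filter and 1185 with DESeq2, with a range of 302 to 764 when 1 library was left out. The interaction count of 326 became 819 with no filter, where 59.5% were higher in knockout against 36.5%, and 623 with DESeq2, with a range of 182 to 397. Scaling by library totals moved the share of higher calls from 53.8% to 42.0% in knockout, from 53.8% to 65.3% in wild type and from 36.5% to 25.1% for the interaction. With only the 5 knockout libraries there were 589 calls. The S phase rises (12) ranged from 4 to 13 when 1 library was left out, the mast cell and basophil falls (9) from 4 to 10 and the B cell falls (23) from 14 to 23. With a mean of at least 1 CPM the mast cell and basophil falls became 5. Replicate numbers were not treated as pairs: deviations of same-numbered knockout basal and IL-4 libraries had r = -0.033 and -0.0098. A replicate block gave 554 calls in knockout, 7 S phase rises and 5 mast cell and basophil falls. Of 118 genes called and chosen by the naming rule 97 kept the call under the block, 118 with DESeq2, 111 with library totals, and 58 in every fit that left out 1 library. Lyz2, not called, turned from -0.83 to 0.39 on the log2 scale without basal replicate 2 (adjusted p = 0.52), and its lowest value was -1.47, without basal replicate 1. The cause of these shifts was not tested. With 2 basal libraries, small differences in genes of low count were not detectable.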

Other observations

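Among 27 tested p53 target and apoptosis genes 2 rose and 0 fell in knockout macrophages after IL-4. Among the rises was Pmaip1, which encodes the BH3-only protein Noxa, at 2.92 and 1.61 CPM in the basal and 8.63, 11.8 and 16 in the IL-4 libraries (adjusted p = 0.0029). Of 27 genes of the ATF4 and amino-acid response 2 rose (Slc7a11 and Psat1) and 1 fell, the stress protein gene Nupr1 at 109 and 91.6 and 30.7, 45.7 and 46 CPM (adjusted p = 0.0058). Among 39 endoplasmic reticulum stress and chaperone genes 0 rose and 2 fell, Syvn1 (adjusted p = 0.039) and Herpud1 (adjusted p = 0.049). Of 13 transcripts of the mitochondrial genome mt-Nd3 fell, from 1465 and 1533 to 858, 775 and 671 CPM (adjusted p = 0.0076), and mt-Co1 rose, from 4703 and 4576 to 6777, 12395 and 6768 (adjusted p = 0.045). These counts stand beside 4.09% of all genes rising and 3.51% falling, and the genes were named after their values were seen. Pmaip1 and mt-Nd3 lost their calls without basal replicate 2 (adjusted p = 0.059 and 0.070) and Nupr1 without basal replicate 1 (0.070). Syvn1, Herpud1 and mt-Co1 kept theirs in 2, 1 and 4 of the 10 fits that left out 1 library, and without basal replicate 2 they stood at 0.19, 0.21 and 0.23.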
